A study of Mus musculus with 7 samples.

Results

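Gene deserts are long stretches of the genome with no protein-coding gene, and the regions described here are the replication origin peaks that lie inside them. A peak or origin on chromosomes 1 to 19 was included when its midpoint lay at least 500 kb from the body of the nearest protein-coding gene in the RefSeq annotation (mm10, GRCm38.p6). Of the 559448 rows in 9 deposited lists, 33001 met this rule. They comprised 28523 rows of the 6 library lists, called with MACS2 and referred to as MACS peaks, and 4478 rows of the 3 condition lists, referred to as origins. The measured distance chose the members, and no peak height, width or condition entered the choice.

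The lists came from mouse embryonic stem cells (mESCs), whose short nascent strands, the RNA-primed DNA made where replication has just begun, were sequenced. The design was 3 conditions with 2 libraries each. Untreated cells are called WT, cells given the DNA polymerase inhibitor aphidicolin (0.5 µM during 2.5 h) are called APH, and cells given doxycycline (1 µg/ml during 30 h) to overexpress CDC6, a factor that loads the replicative helicase, are called CDC6. WT 2, both APH libraries and both CDC6 libraries were made from TetO-CDC6 mESCs, so the transgene was also present in WT 2 and in APH. WT 1 was made from another mESC stock labelled with the genotype WT, grown in another medium and deposited earlier. The labels do not say whether libraries of a condition are separate cultures, so p-values here reflect only how far these samples differ among themselves, possibly for technical reasons. Nascent DNA does not report gene expression, so neither the CDC6 induction nor cell markers were checked. The read depth is unknown. The libraries held between 68896 and 93089 autosomal MACS peaks, with WT 1 the highest, and these numbers limit the precision.

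Origins mapped by nascent strands tend to gather at CpG-rich promoters and other GC-rich sequence. Many potential origins stay unused until replication is slowed. Gene deserts are usually AT-rich, poor in CpG islands and replicated late in S phase, and some of them hold distant enhancers of the developmental genes at their edges. Long stretches with few origins are known as places where replication can remain incomplete under stress.

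The rule outlined 247 deserts with 201 Mb in all, 8.41% of the autosomal span of peaks. Their median length was 498 kb and the longest spanned 3542 kb. The 72 deserts of at least 1000 kb held 68.4% of the desert length. Each of these 72 had a MACS peak in every library, as did 216 of the 247. The 4 deserts without any peak were short, with a median of 19.4 kb. RefSeq does not class the V segments of antigen receptors as protein-coding, so 3 of the deserts (4.43 Mb) contain such segments, among them Adam6a to Zfp386 on chromosome 12 and Gm36448 to Dad1 on chromosome 14. Deserts are named here by the protein-coding genes on their left and right.

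The sequences below are promoters and microRNAs that lie inside deserts and are shown because they are the annotated start sites there at which peaks were or were not found. They are RefSeq sequences of GRCm38.p6, written 5′ to 3′ on the strand of the gene. The promoter windows run from 250 bases before to 50 bases after the start of a long non-coding RNA (lncRNA) gene, and capitals mark CG dinucleotides. Gm35827 (chr15:24724667-24724966, plus strand, between Cdh18 and Basp1) had a peak in all 6 libraries. Gm46244 (chr1:113145271-113145570, plus strand, between Dsel and Cntnap5a) is shown as the contrast, since it has 18 CG dinucleotides and had no peak. In the mature microRNAs, capitals mark the seed, bases 2 to 8.
Gm35827: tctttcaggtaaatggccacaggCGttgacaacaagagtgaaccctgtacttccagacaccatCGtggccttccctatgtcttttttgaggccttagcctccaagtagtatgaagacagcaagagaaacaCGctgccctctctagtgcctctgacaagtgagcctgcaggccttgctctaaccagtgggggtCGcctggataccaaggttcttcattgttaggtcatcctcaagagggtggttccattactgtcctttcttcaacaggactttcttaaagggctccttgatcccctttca
Gm46244: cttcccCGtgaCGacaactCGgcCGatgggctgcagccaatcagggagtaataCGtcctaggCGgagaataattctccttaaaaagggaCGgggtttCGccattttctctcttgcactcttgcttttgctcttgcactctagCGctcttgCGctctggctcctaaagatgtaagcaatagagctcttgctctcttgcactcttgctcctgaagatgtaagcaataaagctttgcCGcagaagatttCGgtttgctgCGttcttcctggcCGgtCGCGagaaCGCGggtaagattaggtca
miR-6238: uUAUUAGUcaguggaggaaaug
miR-8099: cCAAGGCGugggaaagguugu

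The first comparison asked how densely desert DNA was populated with peaks. Deserts held fewer peaks per Mb than the rest of the autosomes in every library, with a gap that was wide in WT 1 and close to 0 in WT 2. WT 1 had 18.7 peaks per Mb in deserts against 40.7 elsewhere, and WT 2 had 32.3 against 32.8. APH 1 had 26.6 against 30.1 and APH 2 had 22.3 against 29.4. CDC6 1 had 18.2 against 30.6 and CDC6 2 had 23.6 against 34.2. The desert density was thus 0.459 times that of the rest in WT 1 and 0.985 times in WT 2, with the 4 treated libraries between them, from 0.595 to 0.883. The mean log2 ratio was -0.50 ± 0.399 (SD, n = 6) and was negative in 6 of 6 libraries. An exact two-sided sign-flip permutation test over the 6 libraries gave p = 0.03125, the smallest this number of libraries allows, and 0.0625 after adjustment over the 4 within-library measures, which does not pass 0.05.

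Density was lower in deserts than in gene bodies in every library, and most of the decline lay short of the distance that defines a desert. The decline was not steady in all libraries. Relative to the autosomal mean density, the bodies of protein-coding genes stood at 1.23 in WT 1 and 1.02 in WT 2, 1.02 in APH 1 and 1.09 in APH 2, 1.23 in CDC6 1 and 1.19 in CDC6 2. At 250 to 500 kb from a gene the ratio was 0.565 in WT 1 and 0.937 in WT 2, 0.881 in APH 1 and 0.774 in APH 2, 0.622 in CDC6 1 and 0.708 in CDC6 2. At 500 to 1000 kb it was 0.473, 0.975, 0.889, 0.776, 0.610 and 0.7001 in the same order, and beyond 1000 kb 0.496, 1.01, 0.899, 0.768, 0.628 and 0.722. WT 2 fell to 0.915 at 100 to 250 kb and rose at each greater distance. Under 50 kb from a gene the ratio was 1.05 in WT 2, 1.10 in APH 1 and 1.10 in APH 2, above their gene bodies. The step across 500 kb was largest in WT 1, and WT 2, APH 1 and, by very little, APH 2 stepped upwards. Beyond 1000 kb from a gene the density was close to that at 500 to 1000 kb in all 6 libraries. Just outside the limit, 450 to 500 kb from a gene, densities ran from 17.5 to 30.5 peaks per Mb, and just inside, at 500 to 550 kb, from 17.4 to 31.8.

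**Figure D1:**
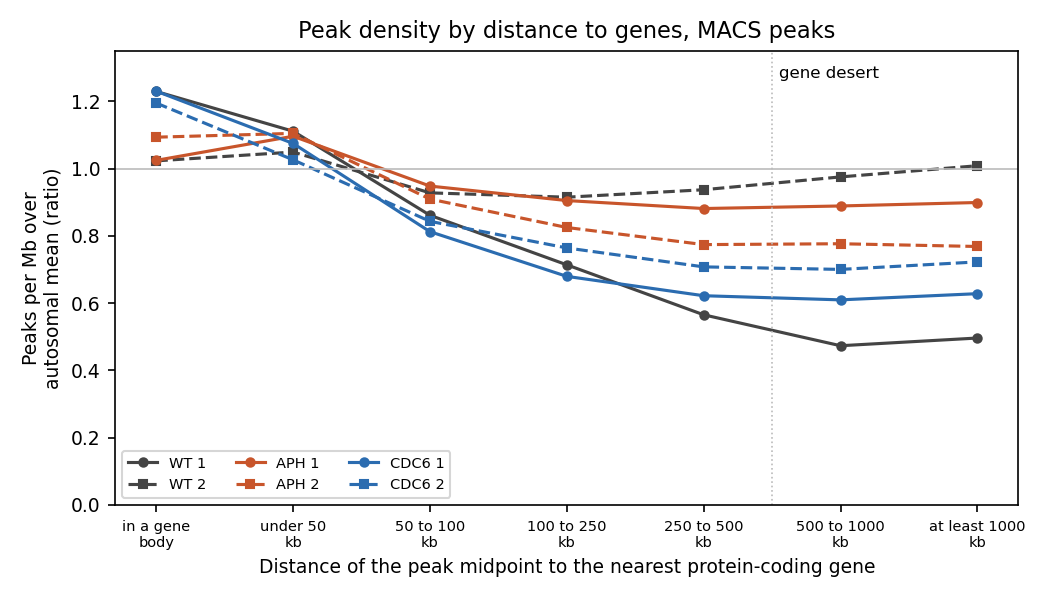
Peak density by distance of the peak midpoint to the nearest protein-coding gene (x axis, 7 classes) relative to the autosomal mean of the same library (y axis, ratio), with 1 line per library. All lines start above 1 in gene bodies; beyond 500 kb WT 1 lies lowest, at 0.473 to 0.496, and WT 2 highest, at 0.975 to 1.01.

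Within each chromosome the order was the same for most libraries. The desert density lay below that of the rest on 19 of 19 chromosomes in WT 1, APH 2, CDC6 1 and CDC6 2, on 17 in APH 1 and on 12 in WT 2. The median ratio over chromosomes was 0.463 in WT 1 and 0.993 in WT 2. Chromosome 1 holds the most desert DNA, 21.3 Mb, and chromosome 19 the least, 1.51 Mb. Chromosome 8 stood apart in 1 library: it carried 12.2% of the desert peaks of WT 1 and between 5.90% and 6.55% of those of the other libraries.

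Desert peaks were also weaker within their own list. Strength was the percentile rank of a peak among the autosomal peaks of its library by the authors' −log10 q-value, so that the mean peak stands near 50. The mean rank of desert peaks was lower than that of other peaks in every library, with a difference of -8.91 percentile points in WT 1 and -2.79 in WT 2, -4.41 in APH 1 and -7.91 in APH 2, -6.92 in CDC6 1 and -4.54 in CDC6 2. The mean difference was -5.91 ± 2.36 points (SD, n = 6), with 6 of 6 libraries negative (two-sided exact sign-flip permutation test, p = 0.03125, adjusted p = 0.0625). The size in units of enrichment was small. The median fold over control, as the authors gave it, was 2.51 in deserts against 2.61 elsewhere in WT 1, 2.42 against 2.43 in WT 2, 2.57 against 2.61 in APH 1, 2.41 against 2.53 in APH 2, 2.43 against 2.51 in CDC6 1, and 2.71 against 2.74 in CDC6 2.

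Weak and strong peaks differed in how many of them were in deserts. Each list was divided by strength into 5 classes of equal size. In the weakest class of WT 1, 5.40% of peaks lay in deserts, and in the strongest 2.22%. The corresponding shares were 8.74% and 6.52% in WT 2, 7.36% and 4.53% in APH 1, 8.06% and 3.57% in APH 2, 6.48% and 3.17% in CDC6 1, and 6.38% and 3.70% in CDC6 2. The strongest class had the smallest desert share in all 6 libraries. In APH 1 the middle class had the largest, 9.29%.

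The central comparison of the design asked whether deserts took a larger share of the peaks under stress. No difference in desert share beyond the spread between the WT libraries was detected. Deserts held 4.04% of the peaks of WT 1 and 8.29% of WT 2, 7.50% of APH 1 and 6.51% of APH 2, and 5.18% of CDC6 1 and 5.95% of CDC6 2. The 4 treated libraries lay inside the interval set by the 2 WT libraries, and both APH libraries lay above both CDC6 libraries. The mean share was 6.17% ± 3.005 in WT, 7.01% ± 0.704 in APH and 5.56% ± 0.546 in CDC6 (SD, n = 2 each). The 4 treated libraries exceeded WT by 0.117 percentage points (exact two-sided permutation test, p = 0.933, where 15 splits allow no p under 0.0667). APH minus WT was 0.838 points (exact permutation test, p = 1), CDC6 minus WT was -0.604 points (exact permutation test, p = 1), and APH minus CDC6 was 1.44 points (exact permutation test, p = 0.333, the smallest that 2 against 2 libraries allow). Adjusted over the 4 comparisons, all 4 exact permutation p-values were 1. The contrasts with WT share the same WT libraries, and their sign rests on them. Without WT 1, APH minus WT became -1.29 points and the treated mean minus WT -2.01, and without WT 2, CDC6 minus WT became 1.52. Without APH 1, the treated mean minus WT was -0.289.

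**Figure D2:**
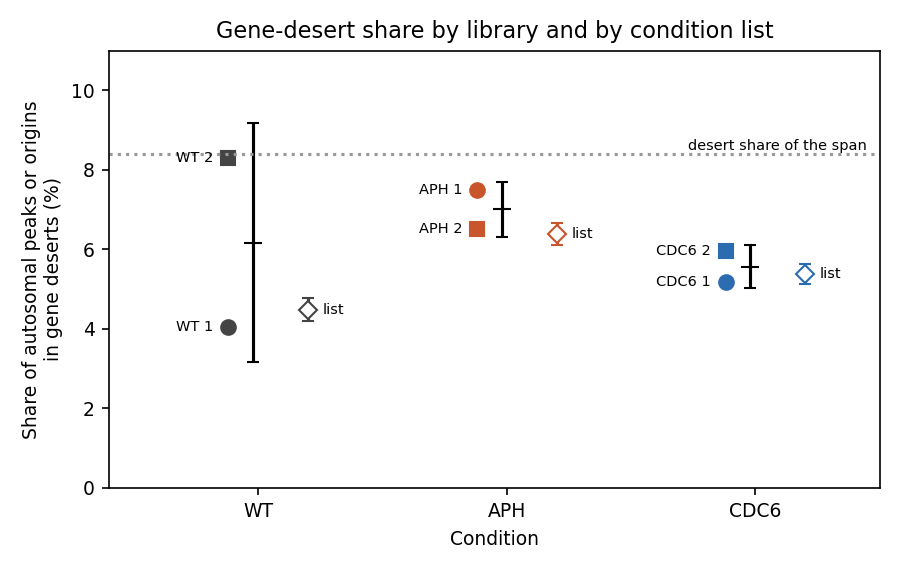
Share of autosomal peaks or origins in gene deserts (y axis, percent) by condition (x axis). Filled points are libraries, bars the mean and SD of 2 libraries, diamonds the condition lists with exact 95% binomial intervals, and the dotted line the 8.41% of the span that is desert. WT 1 and WT 2, at 4.04% and 8.29%, enclose the 4 treated libraries.

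Peak width gave a clearer division between libraries than peak number. The median desert peak was 985 bp wide in WT 1 and 1174 bp in WT 2, 1204 in APH 1 and 1083.5 in APH 2, and 991 bp in CDC6 1 and 970 bp in CDC6 2. Against other peaks of the same library, whose medians ran from 1042 to 1166 bp, the mean log2 width ratio was -0.06 ± 0.107 (SD, n = 6; negative in 4 of the 6; two-sided exact sign-flip permutation test, p = 0.219, adjusted p = 0.292). With the 20000 strongest peaks of each library the ratio was -0.21 and negative in all 6 (exact sign-flip permutation test, p = 0.03125, adjusted p = 0.0625), and without single libraries it ran from -0.10 to -0.04, the ends being without APH 1 and without CDC6 1. The medians hid a difference in the widest peaks. Of desert peaks, 1018 of APH 1 (18.99%), 425 of APH 2 (9.48%) and 231 of WT 2 (3.55%) spanned at least 5 kb, whereas 4 of WT 1 (0.106%), 2 of CDC6 1 (0.0546%) and 3 of CDC6 2 (0.0632%) did. Outside deserts the same libraries had 10.5%, 5.75%, 2.87%, 3.31%, 2.40% and 1.78% of such peaks in that order. Broad peaks were thus more frequent in deserts than elsewhere in APH 1, APH 2 and WT 2, and nearly missing from deserts in WT 1 and both CDC6 libraries, although all 6 had them outside. The limit of 5 kb was chosen after the widths had been seen, and the division does not follow the conditions, because the WT libraries fall on different sides.

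The amount of desert DNA covered by peaks divided the libraries in the same way. Peaks covered 4.17 Mb of desert in WT 1 and 11.4 Mb in WT 2, 13.8 Mb in APH 1 and 9.07 Mb in APH 2, 4.29 Mb in CDC6 1 and 5.07 Mb in CDC6 2. As a share of desert length this was 2.07%, 5.64%, 6.84%, 4.50%, 2.13% and 2.52%, against 6.64%, 5.40%, 6.12%, 5.24%, 4.78% and 4.85% of the rest. WT 2 and APH 1 covered deserts more fully than the rest of the autosomes, and the other 4 libraries less. The APH mean of covered desert DNA, an amount in Mb, was 2.44 times the CDC6 mean. The mean number of desert peaks was 4922.5 in APH and 4207 in CDC6. The desert share of peaks, a measure within each library and so of another kind, differed 1.26-fold. WT 2 covered 2.73 times as much desert DNA as WT 1. The median gap between neighbouring desert peaks ran from 20.7 kb in WT 2 to 36.4 kb in CDC6 1, and between other peaks from 13.8 kb in WT 1 to 21.6 kb in APH 1.

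Repeat libraries of a condition shared desert peaks to very different degrees. A desert peak of WT 1 overlapped a peak of WT 2 in 55.2% of cases, and a desert peak of WT 2 overlapped WT 1 in 31.8%. For APH the shares were 71.1% of APH 1 and 90.8% of APH 2, and for CDC6 69.6% of CDC6 1 and 53.5% of CDC6 2. Other peaks were found again in 42.6%, 53.9%, 78.7%, 83.2%, 76.8% and 69.0% in the order WT 1, WT 2, APH 1, APH 2, CDC6 1, CDC6 2. The difference averaged -5.36 ± 13.2 points (SD, n = 6; negative in 4 of 6; exact two-sided sign-flip permutation test, p = 0.375, adjusted p = 0.375). It was -8.94 points without WT 1 and -2.02 without WT 2. The 2 libraries of a condition were scored against each other, so the 6 values are not independent. The test does not take this into account. In covered bases, the 2 APH libraries shared 0.546 of their joint desert coverage, the 2 CDC6 libraries 0.349 and the 2 WT libraries 0.147. Outside deserts the order was the same, at 0.572, 0.496 and 0.210. WT 2 shared more desert coverage with APH 1 (0.402) and APH 2 (0.382) than with WT 1, as it did outside deserts (0.398 and 0.393).

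Merging the 6 libraries gave 10458 desert sites, of which 999 (9.55%) had a peak in all 6, against 15.7% of 148571 sites elsewhere. Sites with a peak in every library except WT 1 were 6.45% of desert sites and 3.29% of other sites. Sites in every library except WT 2 were 0.497% and 2.34%. A peak in all 4 treated libraries and in no WT library was found at 115 desert sites (1.10%, against 1.01% elsewhere). The opposite pattern, a peak in both WT libraries and in no treated one, had 321 (3.07%, against 2.19%). WT 2 alone accounted for 1472 desert sites (14.1%, against 8.36%) and WT 1 alone for 1136 (10.9%, against 19.2%).

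The condition lists, 1 per condition and so without replicate error, gave another order. The WT list had 887 desert origins of 19773 (4.49%, exact Clopper-Pearson 95% interval 4.20 to 4.78), the APH list 1951 of 30572 (6.38%, 6.11 to 6.66) and the CDC6 list 1640 of 30504 (5.38%, 5.13 to 5.64). These intervals cover counting error only. Desert origins were 2.20 times as many in APH as in WT and 1.85 times as many in CDC6, whereas origins nearer to genes were 1.52 and 1.53 times as many. Desert origins were narrower than others in each list, with medians of 641 against 724 bp in WT, 597 against 676 bp in APH and 686 against 739 bp in CDC6. Nearly every origin of a list met a peak in both libraries of its condition, in deserts and elsewhere. Of desert WT origins, 99.0% met a WT 1 peak and 100% a WT 2 peak, against 99.5% and 100% elsewhere. The desert shares were 100% and 100% for the APH list, and 99.9% and 100% for the CDC6 list. This overlap is therefore no measure of how reproducible deserts are. In the plot of shares the WT list lies close to WT 1, the WT library with the fewer desert peaks.

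Desert origins were shared with the WT list less often than other origins, and WT origins with both stress lists, whereas between the 2 stress lists one direction was lower and the other higher. Of desert WT origins, 56.9% met an APH origin and 49.8% a CDC6 origin, against 72.5% and 69.4% of WT origins elsewhere. Of desert APH origins, 25.9% met a WT origin (47.5% elsewhere) and 56.4% a CDC6 origin (64.5% elsewhere). Of desert CDC6 origins, 27.0% met a WT origin (45.1% elsewhere) and 67.0% an APH origin, which was more than the 63.9% elsewhere. Merged into 2793 desert regions, the lists gave 364 regions held by all 3 (13.0%, against 26.6% of regions elsewhere), 736 held by both stress lists alone (26.4%, against 16.7%), 708 by APH alone (25.3%, against 18.6%), 462 by CDC6 alone (16.5%, against 20.6%) and 304 by WT alone (10.9%, against 8.23%). The largest class in deserts was that of both stress lists, and elsewhere that of all 3.

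**Figure D3:**
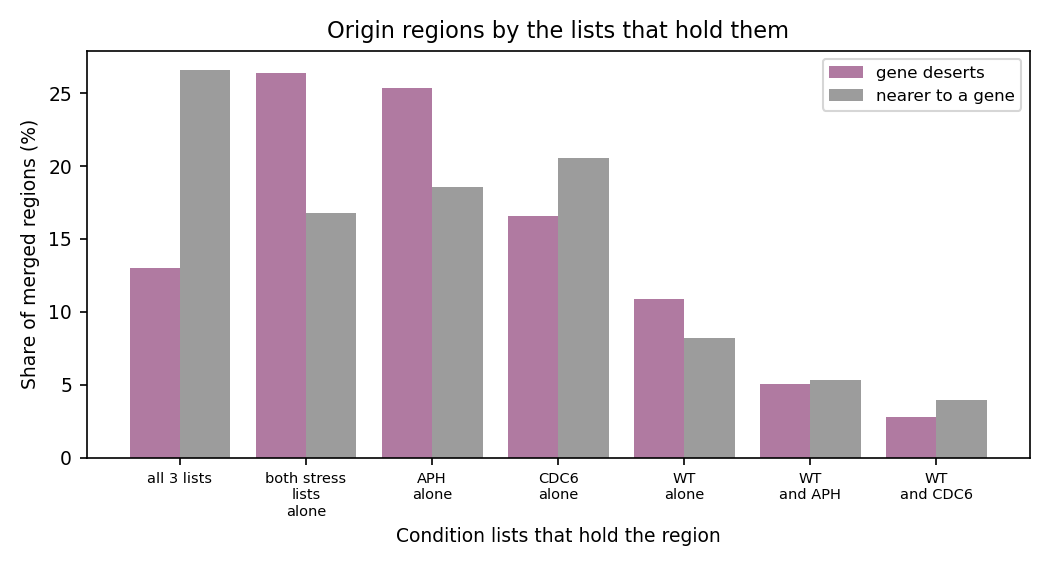
Share of merged origin regions (y axis, percent) by the condition lists that hold them (x axis), in gene deserts and nearer to a gene. Each set of bars sums to all regions of its kind. Regions of all 3 lists are 13.0% in deserts and 26.6% elsewhere.

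A desert region without a WT origin was usually not without a WT peak. Of the 1906 such regions (68.2% of desert regions, against 55.9% elsewhere), 81.3% met a peak of WT 1, WT 2 or both and 357 (18.7%, against 15.2% elsewhere) met none. The 2 WT libraries contributed unequally: 31.1% of these desert regions met a WT 1 peak and 76.5% a WT 2 peak, where elsewhere the shares were 58.6% and 63.2%. Desert origins of the APH list met a WT 1 peak in 49.6% and a WT 2 peak in 85.3% of cases, against 76.4% and 84.8% for APH origins elsewhere. For the CDC6 list the shares were 53.2% and 85.9% in deserts and 79.1% and 81.2% elsewhere. For WT 2, which was made from the same TetO-CDC6 cells, the desert shares were not below those elsewhere, and for WT 1 they were lower by more than 25 points in both lists. The cell stock, medium and separate deposit of WT 1 all move with this result and cannot be told apart.

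To look at deserts one by one, MACS peaks were counted in 1 Mb bins, scaled to equal totals and compared as log2(number + 1) with limma over 2398 bins, of which 172 were at least 50% desert. No bin passed an adjusted p of 0.05 in any of the 3 contrasts (0 of 172 desert bins, with a background of 0% of all bins). At an unadjusted p under 0.05 in limma there was 1 desert bin in APH minus WT (background 1.92%), 5 in CDC6 minus WT (background 2%) and 1 in APH minus CDC6 (background 2.59%). In APH minus CDC6 the shift of the desert bins was nevertheless broad: 158 of 172 desert bins (91.9%) were positive, against 56.5% of all bins, with a median of 0.31 on the log2 scale against 0.05 (0.21 against -0.04 without scaling to equal totals). In 105 desert bins (61.0%) both APH libraries lay above both CDC6 libraries, against a background of 32.6%, and in 2 both lay below, against 25.8%. This order was not particular to deserts. At 250 to 500 kb from a gene the density relative to the autosomal mean was 0.881 and 0.774 in APH, against 0.622 and 0.708 in CDC6. At 100 to 250 kb it was 0.905 and 0.825 against 0.679 and 0.764. In APH minus WT, 132 desert bins (76.7%, against 55.8% of all) were positive, the median was 0.26 against 0.04 (-0.01 against -0.24 without scaling, a shift of all bins that turns the sign of the desert median), and both APH libraries lay above both WT libraries in 16 (9.30%, background 11%) and below in 6 (background 12.9%). In CDC6 minus WT, 79 desert bins (45.9%, against 48.8% of all) were positive, and the median was -0.03 against -0.01 (-0.21 against -0.19 without scaling). The libraries separated upwards in 1 desert bin (background 10.6%) and downwards in 14 (8.14%, background 13.8%). The contrasts share their libraries in pairs, so they are given side by side and not as repeats of each other.

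The WT library that was kept decided what the bins showed. Without WT 2, limma called 110 desert bins higher and 1 lower in APH minus WT (backgrounds 22.8% and 14.2%), and 50 higher and 5 lower in CDC6 minus WT (backgrounds 8.05% and 5.3%). Without WT 1 it called 0 desert bins in APH minus WT (2.17% of all bins were higher and 0.834% lower) and 72 lower in CDC6 minus WT (background 18.3%). These fits take the spread of the lone WT library from the APH and CDC6 groups. On simulated data with large changes the limma fit made more false calls than its nominal rate, so the numbers of called bins may be too high. The simulated data had 2 libraries in every group and counting error only. They therefore give no rate of false calls for fits with a lone WT library. APH minus CDC6 gained 17 higher desert bins without WT 1 (background 5%) and 18 without WT 2 (background 5.46%), with no desert bin lower in either fit (backgrounds 4.63% and 6.26%). With the APH and CDC6 libraries alone, a fit added after the values had been seen, 18 desert bins were higher (10.5%, background 5.17%) and 0 lower (background 5.09%).

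**Figure D4:**
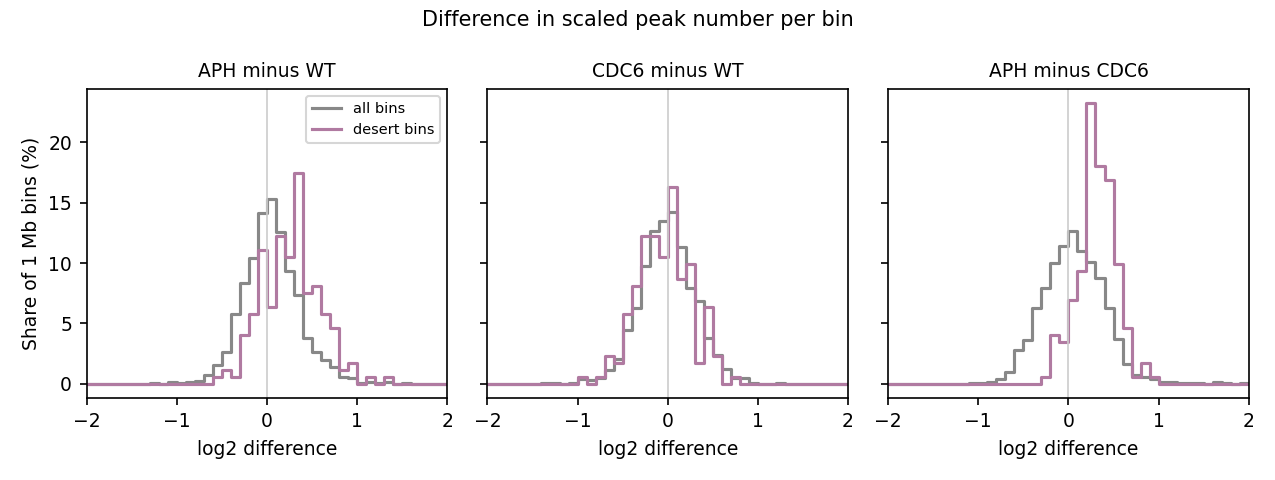
Distribution of the log2 difference in scaled peak number per 1 Mb bin (x axis) as a share of bins (y axis, percent), for all bins and for the desert bins, in 3 contrasts. The desert bins lie to the right of all bins in APH minus CDC6, with medians of 0.31 and 0.05, and over them in CDC6 minus WT.

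The desert bins with the smallest p were named although none of them passed. Among those higher in APH than in WT were bins between Dsel and Cntnap5a (Cntnap5a encodes a neural adhesion protein of the neurexin superfamily; 15 peaks in WT 1 and 29 in WT 2, 34 in APH 1 and 32 in APH 2, 23 in CDC6 1 and 27 in CDC6 2), between Hs3st1, a heparan sulfate sulfotransferase, and Rab28 (7, 20, 26, 20, 15 and 15), and between 1700015G11Rik and Luzp2 (12, 25, 27, 27, 15 and 21). In these 3 bins WT 1 was the lowest library. The log2 difference of the Dsel bin was 0.90 ± 0.361 (SE; limma, adjusted p = 0.999). The 3 bins lower in APH lay on chromosome 8, between Tenm3 and Aga (39 and 32 peaks in WT, 21 and 19 in APH), BC030500 and Aadat (47 and 39 against 30 and 23), and Got2 and Cdh8 (45 and 34 against 26 and 23). The 3 bins lower in CDC6 lay there too, in the deserts of Got2, a mitochondrial aspartate aminotransferase, and of Tenm3, a neural adhesion protein. The first Got2 bin held 16 and 20 peaks in CDC6, a log2 difference from WT of -0.91 ± 0.238 (SE; limma, adjusted p = 0.998). In each of these chromosome 8 bins WT 1 had the highest count, and the part of the high count of chromosome 8 in WT 1 was not tested there. Bins higher in CDC6 lay between Tenm2 and Mat2b (0.79 on the log2 scale) and between Gm6749 and Grm7, a glutamate receptor (0.40). In these bins too WT 1 was the lowest library.

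The 8 longest deserts show the libraries in single places. Between the protocadherin genes Pcdh20 and Pcdh9 on chromosome 14, whose products are neural adhesion proteins, the longest desert held 85 peaks in WT 1 and 130 in WT 2, 105 in APH 1 and 91 in APH 2, 76 in CDC6 1 and 97 in CDC6 2. Celf4 to Pik3c3 held 56, 87, 79, 74, 53 and 75 in the same order, Olfm4 to Pcdh17 60, 119, 91, 73, 67 and 86, and Cntnap5b to Cdh20 42, 96, 70, 60, 45 and 55. Slc39a10 to Tmeff2 held 46, 103, 76, 66, 61 and 73, Lrrc4c to Iftap 43, 91, 83, 59, 54 and 64, and Dsel to Cntnap5a 34, 75, 82, 68, 49 and 69. Tenm3 to Aga on chromosome 8 held 104, 91, 73, 62, 53 and 73. WT 2 was the highest in 6 of the 8, APH 1 in the Dsel desert and WT 1 in the Tenm3 desert. WT 1 or CDC6 1 was the lowest in all 8.

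**Figure D5:**
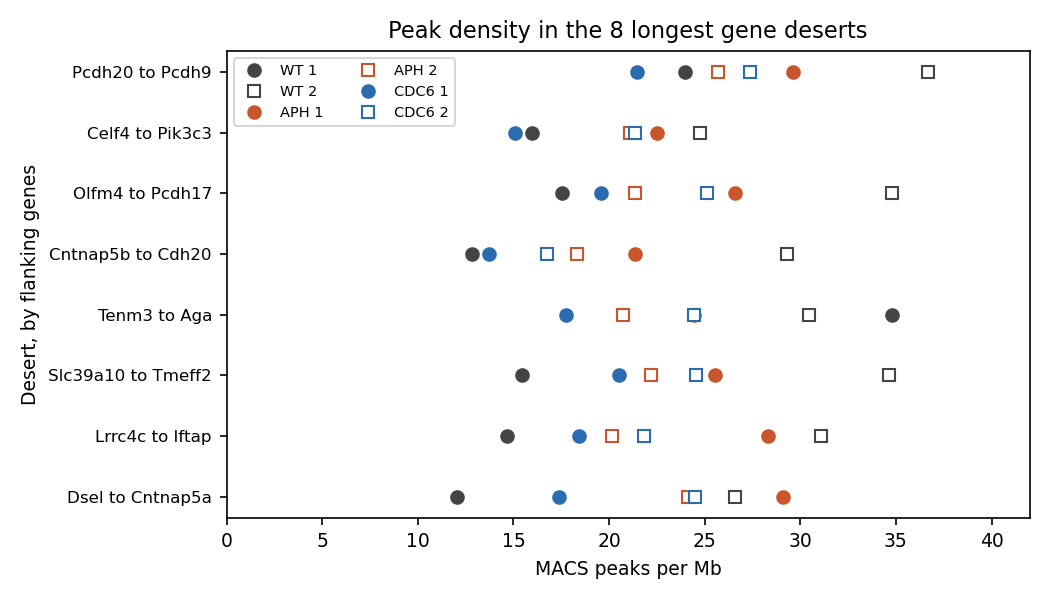
MACS peaks per Mb (x axis) in the 8 longest gene deserts (y axis, named by the flanking genes), 1 marker per library. Markers of APH 1 and CDC6 2 coincide in the Tenm3 to Aga desert, the one in which WT 1 lies highest, at 34.8 peaks per Mb.

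Over the 72 deserts of at least 1000 kb, densities ran from 4.00 to 48.2 peaks per Mb in WT 1 (median 17.6), from 21.4 to 49.0 in WT 2 (median 32.8), from 15.5 to 37.7 in APH 1 (median 27.0), from 14.1 to 30.9 in APH 2 (median 22.5), from 11.2 to 28.2 in CDC6 1 (median 18.4) and from 10.7 to 35.3 in CDC6 2 (median 24.4). WT 1 had the widest range. Its lowest value, and that of CDC6 2, lay in the desert with immunoglobulin heavy chain V segments between Adam6a and Zfp386, and its highest between Got2 and Cdh8 on chromosome 8.

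Genes at the edges of deserts were grouped by lists of symbols. A developmental transcription factor such as Sox2, Sox9 or Pou3f2 stood on either side of 24 deserts (9.72%), a neural adhesion or synapse gene such as a cadherin, protocadherin or teneurin on either side of 67 (27.1%), and neither at 156. Peak densities differed little between these sets compared with the spread between libraries. Deserts beside transcription factors had 20.03 peaks per Mb in WT 1 and 29.4 in WT 2, 23.4 in APH 1 and 19.5 in APH 2, 17.5 in CDC6 1 and 21.1 in CDC6 2. Deserts beside neural genes had 19.3, 33.2, 26.9, 22.1, 18.5 and 23.8, and those beside neither 17.995, 31.8, 26.7, 22.7, 18.02 and 23.7. In 5 of 6 libraries deserts beside transcription factors had the lowest density of the 3 sets, and in WT 1 the highest.

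Individual desert regions ranked high within their libraries. The highest fold of a desert peak was 8.58 in WT 1 and 8.48 in WT 2, against 14.3 and 16.6 for other peaks. It was 10.96 in APH 1 and 13.0 in APH 2, against 15.4 and 15.3. In CDC6 1 it was 14.3 against 14.2, and in CDC6 2 9.19 against 12.4. In the class held by all 3 lists, the region with the highest mean rank lay between Slc39a10, a zinc importer, and Tmeff2 (chr1:48545335-48548620), 1621 kb from the nearest protein-coding gene. Its fold over control was 6.83 in WT 1 and 6.33 in WT 2, 6.51 in APH 1 and 8.98 in APH 2, 12.2 in CDC6 1 and 8.83 in CDC6 2. The next lay between the cadherin genes Cdh6 and Cdh9 (chr15:14168867-14171526), with folds of 6.15, 6.01, 7.74, 9.63, 8.77 and 8.16. Regions between Lrfn5 and Fscb, D3Ertd751e and Pcdh10, and Dsel and Cntnap5a followed, each with a peak in all 6 libraries and a mean rank of at least 98.9. Folds belong to separately called lists and are not compared between libraries.

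The region with the highest fold of any desert peak in 5 of the 6 libraries was in the class of both stress lists alone. It lay between Tenm3 and Aga (chr8:52303205-52308902), 1206 kb from a protein-coding gene, with folds of 6.71 in WT 1 and 8.48 in WT 2, 10.96 in APH 1 and 13.0 in APH 2, 14.3 in CDC6 1 and 9.19 in CDC6 2. It was the strongest autosomal peak of CDC6 1 by q-value and ranked at the percentile 99.99 in WT 2 and 98.4 in WT 1. It is absent from the WT list although both WT libraries had a strong peak there. The same held for the other named regions of this class, between Trim52 and Slitrk1 (folds of 6.09 and 6.53 in WT) and between Pou3f2, a transcription factor of neural progenitors, and Mms22l, a gene of replication-fork repair (6.05 and 6.11), the latter overlapping the lncRNA gene Gm38450.

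The leading regions of APH alone and of WT alone ranked lower than those above. The strongest of APH alone lay between Tlr4 and Brinp1, with peaks in APH (folds of 4.07 and 5.33) and in both WT libraries (3.36 and 3.40) but in no CDC6 library. Another, between Pou3f2 and Mms22l, had a peak in 5 libraries. Its percentile rank was highest in CDC6 1, at 98.4, against 92.8 in APH 1, 94.9 in APH 2, 88.6 in WT 1 and 96.8 in WT 2. One between Cox7c and Edil3 had a peak in 3: WT 2 (fold of 2.75), APH 1 (5.14) and APH 2 (4.88). The strongest of CDC6 alone, between Dsel and Cntnap5a, shared broad MACS peaks with the region of all 3 lists beside it, and its mean rank of 99.4 over the 5 libraries with a peak therefore belongs to both. The others lay between Slc8a1, the sodium-calcium exchanger of the heart, and Pkdcc (peaks in all 6 libraries) and between Cntnap5b and Cdh20 (in all but WT 1). Of WT alone, a region between Trim52 and Slitrk1 had a peak in 4 libraries and one between Lrfn5 and Fscb in 3.

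Non-coding genes held a share of desert peaks close to their share of desert length. Deserts contain 462 pseudogenes, 293 lncRNA genes and 219 V segments. The bodies of lncRNA genes made up 6.74% of desert length and held between 5.50% and 6.30% of desert peaks, depending on the library. All annotated genes together made up 9.85% of the length and held 8.88% to 9.75% of the peaks. Of 231 lncRNA promoter windows in deserts, from 206 genes, 18 (7.79%) met a peak in any library and 1 (0.433%) in all 6. Of 11080 lncRNA windows nearer to genes 31.4% met a peak and 9.98% met one in all 6, and of 20085 protein-coding windows 63.0% and 33.7%. The windows differed in composition in the same order: the median GC content was 42.3% in desert lncRNA windows, 48.7% in other lncRNA windows and 57.0% in protein-coding windows. None of the desert windows reached 60% GC, against 12.1% and 40.3% of the others. Per library, the desert windows that met a peak were 10 in WT 1 and 9 in WT 2, 3 in APH 1 and 4 in APH 2, 6 in CDC6 1 and 7 in CDC6 2.

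The promoter of Gm35827 printed above, with 49.7% GC and 4 CG dinucleotides, was the desert window with a peak in all 6 libraries, at folds of 3.04 in WT 1 and 2.36 in WT 2, 2.71 in APH 1 and 2.79 in APH 2, 2.65 in CDC6 1 and 3.13 in CDC6 2. It was in all 3 condition lists. The window of Gm12381 met peaks in 5 libraries, but only with 35 to 101 of its 300 bases. Gm46244 lay in the Dsel to Cntnap5a desert, had 51.0% GC and met no peak. Of 19 microRNA hairpins in deserts, 2 met a peak (10.5%), against 40.4% of 900 hairpins elsewhere. Mir6238 on chromosome 7 had peaks in both APH (2.58 and 2.07) and both CDC6 libraries (2.46 and 2.86) and in neither WT library. Mir8099-2 on chromosome 12 had peaks in APH 1 (2.67) and CDC6 2 (2.38).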

How the data were processed

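Peaks of short nascent strand DNA from 6 mESC libraries (WT, APH and CDC6, 2 each) and 3 condition lists were used, grouped by the labels' titles; no list of the Input sample was used. The submitters' processing notes name MACS2 2.0.10, BWA 0.7.10, bedtools 2.23.0, Picard 1.107 and SAMtools 0.1.19 as the authors' tools, without their roles. The MACS lists hold the authors' deposited score, ratio (fold over control), p-value and q-value, both as −log10, for each peak. They end at a q-value of 0.1 and a width of 400 bp. The condition lists hold 2 deposited scores of unstated meaning, which were not used. The files give no read counts, so depth is unknown.

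Distances were taken from peak midpoints to 20665 protein-coding genes of RefSeq (GRCm38.p6), and areas on a 1 kb grid within the span of peaks. Computation used Python 3.11.15, numpy 2.4.6, pandas 2.3.3 and scipy 1.17.1, with exact permutation tests over libraries and Benjamini-Hochberg adjustment. Bins of 1 Mb with a mean of at least 2 peaks were tested with limma 3.58.1 in R 4.3.3 (pseudocount 1, all 3 groups in 1 fit), after a test on simulated data in which false calls exceeded the nominal rate for the larger of the fold changes simulated. Overlap meant at least 1 bp, and intervals are exact Clopper-Pearson 95% intervals.

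Named were the 8 longest deserts, the 5 regions of highest mean rank among those of all 3 lists, the 3 highest of both stress lists alone and of each single list, and the 3 desert bins of smallest p in each direction against WT. Promoter windows were named when they met a peak in at least 5 libraries, and Gm46244 and the microRNAs were chosen after their values were seen. The members and gene lists were chosen with earlier results of these data known. Alternatives varied the distance, q-value, list length, genes, overlap, bins, scaling and libraries. No genome sequence was used, so the base composition and mappability of desert peaks were not analysed here. Some items that these rules select are not reported here.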

Additional observations from a re-analysis of the deposited data

How the results depend on the processing

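The lower mean density and lower mean strength of desert peaks kept their direction under every alternative run, among them 300 and 1000 kb as the distance, q-values of at most 0.01, the 20000 strongest peaks, omission of chromosome 8 and omission of deserts with V segments (added after the data were seen). With the 20000 strongest peaks the mean log2 density ratio was -1.11 and the mean strength difference -5.78, with CDC6 1 alone positive in strength, at 0.683. The density ratio ran from -0.60 to -0.38 when single libraries were left out, which with 5 libraries allows no exact p under 0.0625. The differences in desert share had no stable sign. The treated mean minus WT was -0.294 points with the 20000 strongest peaks, -0.196 with the second deposited lists of the libraries as labelled, and -0.00657 with every gene of the table in place of protein-coding genes, which left 49 to 84 peaks per library. It ran from -2.01 to 2.24 when single libraries were left out. APH minus WT was -0.329 with the second lists, -0.000604 with every gene, and -1.29 to 2.96 without single libraries. CDC6 minus WT ran from -2.73 to 1.52 without single libraries, and APH minus CDC6 was -0.266 with the second lists, whose labels go against those of the MACS lists. The desert share of the WT, APH and CDC6 lists was 7.70%, 10.6% and 9.17% at 300 kb and 1.53%, 1.97% and 1.72% at 1000 kb. The share of desert WT origins met by APH origins was 53.1% at 1000 kb, and that met by CDC6 origins was 45.0% when 50% of the origin had to overlap. Without single libraries, the desert bins called by limma numbered 0 to 111 in APH minus WT, 0 to 72 in CDC6 minus WT and 0 to 18 in APH minus CDC6, and 18 in the last with the APH and CDC6 libraries alone. Without WT 1 or without WT 2, the median desert difference of APH minus CDC6 was 0.31 on the log2 scale. It was also 0.31 with the APH and CDC6 libraries alone. WT libraries enter this difference only through the scaling and the bin filter, so leaving them out could hardly move it. The median was 0.20 without APH 1, 0.42 without APH 2, 0.21 without CDC6 1 and 0.42 without CDC6 2. Why the numbers of called bins changed without WT 1, without WT 2 or with the APH and CDC6 libraries alone was not tested. The cause of the other changes was not tested either. Over 2398 bins the deviations of same-numbered libraries correlated at -0.508 for WT and APH, 0.287 for WT and CDC6 and -0.291 for APH and CDC6. The sign differed between these comparisons, so the numbers were not taken as pairs. With the replicate block, limma called 0 desert bins in each contrast. The share differences stayed at 0.117, 0.838, -0.604 and 1.44 points by design. Each condition has a library of each number, so the block cannot alter them.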
